A study of Mus musculus with 4 samples.

Results

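The genes described here are the metallothioneins *Mt1*, *Mt2* and *Mt3*, the metal sensor *Mtf1*, the zinc exporter gene *Slc30a1* and the inducible nitric oxide synthase gene *Nos2*, in CD8+ T cells sorted from mouse melanomas. They were chosen by symbol, as 6 of the 15981 genes listed in any of the 4 tables, and the choice rested on measured values, because *Mt3* and *Nos2* had the largest decreases in Tc9 among the ferroptosis genes of these data. The Tc9 against Tc1 differences of the 6 genes are therefore a description, and no test was made of them.

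The cells of every sample were Thy1.1+ CD8+ T cells of Pmel-1 mice, which carry a transgenic receptor for a melanoma antigen. Tc1 cells had been polarized with IL-2, and Tc9 cells with IL-4, TGF-β and an antibody that neutralizes IFN-γ, in cultures of 5 days. The recipients, Thy1.2+ C57BL/6 (B6) mice, carried melanomas grown under the skin for 10 days from the mouse line B16. They received either kind of T cell by vein, and in both groups also cyclophosphamide, dendritic cells pulsed with peptide, and IL-2. The T cells were sorted back from the tumors 14 days later. There were 2 RNA-Seq libraries per group, made from pooled RNA, and the study's methods name 6 mice without saying whether they are per group or in all, and the ages of the mice were not used here.

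Metallothioneins are small proteins, rich in cysteine, that bind zinc and copper and can also react with oxidants. MT-1 and MT-2 are made in most tissues and are induced by metals, glucocorticoids and stress, whereas MT-3 is best known from the brain. MTF-1 is a transcription factor that senses zinc and binds metal response elements in the promoters of *Mt1*, *Mt2* and *Slc30a1*, whose product ZnT1 carries zinc out of the cell. NOS2 makes nitric oxide from arginine and is best known from activated macrophages, where IFN-γ and NF-κB signaling induce it.

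The tables reach different gene identifiers, and all 6 genes lie beyond the end of the tables of Tc1 replicate 1 and Tc9 replicate 1. Their levels were thus read in 1 library per group, Tc1 replicate 2 and Tc9 replicate 2, and they have no replicate check. The library depth was 31927162 counts for Tc1 replicate 2, estimated from counts and FPKM, and 30822953 for Tc9 replicate 2, the sum of its whole table, and over all 4 libraries the deepest exceeded the shallowest by a factor of 1.04. At these depths 3 counts, the smallest level taken as detectable, corresponded to 0.0956 CPM (counts brought to a common library size, here with the scaling factors of edgeR) in each of them. Of the 11 CD8 T cell markers looked at, 10 were listed in the tables and 1, *Trac*, was not. *Cd8a* had 21532 counts in Tc1 replicate 2 and 19330 in Tc9 replicate 2. Of the 9 markers tested by edgeR, *Cd3e* and *Cd3g* were called higher in Tc9 and *Cd2* and *Cd5* lower, with log2 fold changes of 0.73, 0.49, -0.44 and -0.61. Over 4 libraries, where 8 of the 9 were tested, 17.4% of all genes tested were called higher and 16.7% lower. Over 3 libraries, where 1 was tested, 7.54% were called higher and 3.21% lower. The number of cells behind each library is not known, and in sorted bulk RNA fewer cells that express a gene and less RNA of it per cell cannot be told apart.

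In the RefSeq annotation of GRCm38 (mm10), the build the submitters' processing notes name, the metallothionein genes form a cluster on the plus strand of chromosome 8. *Mt3* is at chr8:94152607-94154148, *Mt2* at chr8:94172618-94173567 and *Mt1* at chr8:94178883-94180327, and the fourth gene of the cluster, *Mt4*, is at chr8:94137204-94139031. *Mt2* and *Mt1* are 5315 bases apart, and *Mt3* is 18469 bases from *Mt2*. The other genes are *Mtf1* at chr4:124802549-124849800, *Slc30a1* at chr1:191906697-191913248 and *Nos2* at chr11:78920787-78960226.

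The coding sequences of the 3 metallothioneins are shown because these are close relatives, so that reads of one could be counted for another. They were taken from the first transcripts of GENCODE M21, each of 3 exons, and run 5′ to 3′ with the codons for cysteine in capitals.
Mt1: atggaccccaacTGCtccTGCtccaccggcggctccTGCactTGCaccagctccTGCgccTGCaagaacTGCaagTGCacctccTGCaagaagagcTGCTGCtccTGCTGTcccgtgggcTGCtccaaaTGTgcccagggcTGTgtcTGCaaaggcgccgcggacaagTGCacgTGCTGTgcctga
Mt2: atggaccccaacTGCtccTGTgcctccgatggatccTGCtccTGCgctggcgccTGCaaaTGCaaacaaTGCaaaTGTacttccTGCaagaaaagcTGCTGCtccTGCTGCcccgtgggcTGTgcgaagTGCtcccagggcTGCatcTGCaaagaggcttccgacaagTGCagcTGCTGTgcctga
Mt3: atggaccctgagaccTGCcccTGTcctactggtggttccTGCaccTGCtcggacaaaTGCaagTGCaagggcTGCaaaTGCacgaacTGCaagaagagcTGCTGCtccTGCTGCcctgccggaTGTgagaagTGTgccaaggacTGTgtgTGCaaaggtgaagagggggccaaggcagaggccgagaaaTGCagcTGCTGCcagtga
Each holds 20 cysteine codons, among 61 codons before the stop in *Mt1* and *Mt2* and 68 in *Mt3*. The coding sequences of *Mt1* and *Mt2* were 79.6% identical, and *Mt3* was 66.2% identical to *Mt1* and 67.6% to *Mt2*. The longest run of bases that any pair of the whole transcripts shared exactly was 27, between *Mt1* and *Mt3*, and it was 20 between *Mt2* and each of the others. The deposited counts of *Mt1*, *Mt2* and *Mt3* were whole numbers in both libraries.

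The promoters are shown because MTF-1 binding sites are part of what is known of these genes. Promoter windows of 250 bases before and 50 bases from the annotated start, from RefSeq (GRCm38.p6), were matched by symbol for *Mt1*, *Mt2*, *Mt3*, *Mt4*, *Mtf1* and *Slc30a1*. For *Mt1* and *Slc30a1* the start of the promoter table is 206 and 84 bases downstream of the first base of the gene given above, so that those bases of the window lie inside the gene. The 250 bases before the table's start follow for the 3 metallothioneins and the zinc exporter, plus strand, with matches of the metal response element core (TGCACNC or TGCGCNC, on either strand) in capitals.
Mt1, chr8:94178839-94179088: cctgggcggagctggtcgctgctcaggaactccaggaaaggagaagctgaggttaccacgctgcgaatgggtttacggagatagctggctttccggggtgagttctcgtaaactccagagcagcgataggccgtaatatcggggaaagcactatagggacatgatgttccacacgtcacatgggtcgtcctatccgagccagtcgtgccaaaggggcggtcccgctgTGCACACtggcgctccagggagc
Mt2, chr8:94172368-94172617: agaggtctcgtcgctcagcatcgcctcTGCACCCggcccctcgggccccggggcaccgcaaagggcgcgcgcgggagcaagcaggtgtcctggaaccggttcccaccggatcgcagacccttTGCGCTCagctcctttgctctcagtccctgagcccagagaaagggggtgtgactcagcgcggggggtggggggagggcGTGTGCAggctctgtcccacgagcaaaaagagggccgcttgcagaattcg
Mt3, chr8:94152357-94152606: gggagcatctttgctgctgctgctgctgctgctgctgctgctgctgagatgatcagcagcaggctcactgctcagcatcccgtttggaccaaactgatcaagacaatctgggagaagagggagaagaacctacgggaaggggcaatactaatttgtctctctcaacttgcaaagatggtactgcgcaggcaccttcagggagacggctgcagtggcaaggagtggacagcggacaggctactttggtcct
Slc30a1, chr1:191906531-191906780: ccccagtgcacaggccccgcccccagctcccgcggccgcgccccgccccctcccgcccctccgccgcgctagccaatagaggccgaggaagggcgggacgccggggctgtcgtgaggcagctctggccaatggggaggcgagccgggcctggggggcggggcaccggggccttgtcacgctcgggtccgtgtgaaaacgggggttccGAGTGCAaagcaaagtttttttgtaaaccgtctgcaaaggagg
The next 30 bases of *Mt1* are added because 2 more of its matches lie there.
Mt1, chr8:94179089-94179118: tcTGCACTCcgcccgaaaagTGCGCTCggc
Over the whole window of 300 bases the core had 4 matches at *Mt2*, 3 at *Mt1*, 2 at *Slc30a1*, 1 at *Mt3*, 1 at *Mt4* and 0 at *Mtf1*. The single match at *Mt3* lies past the start, at bases 28 to 34. Of all 32851 promoters in the table, 25.7% held at least 1 match, 7.11% at least 2, 1.97% at least 3 and 0.517% at least 4. An antioxidant response element (TGACNNNGC, either strand) matched once at *Mt2*, from base -79 to -71, and once at *Slc30a1*, from base -82 to -74, with 12.4% of all promoters holding it. No match of an interferon-γ activated site (TTCNNNGAA, the same on both strands) or of the NF-κB site was found in these 6 windows, and 8.30% and 8.46% of all promoters held one. *Nos2* is not among the 6, because no promoter window was available for it, so its promoter was not searched. A match is only a string of letters, and no binding was measured here.

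**Figure D1:**
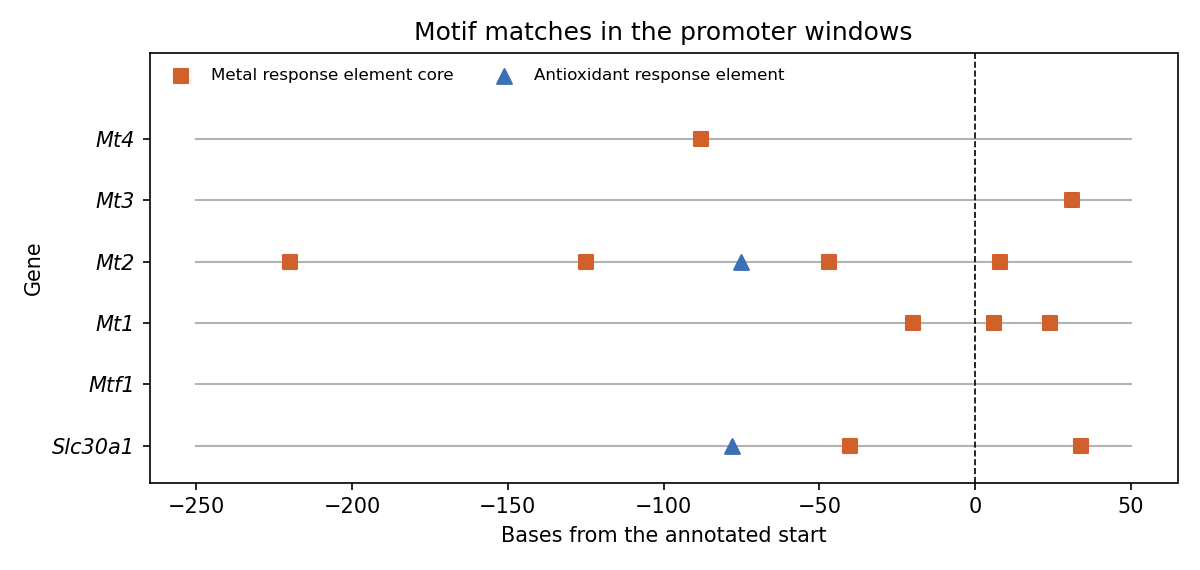
Matches of the metal response element core (squares) and of the antioxidant response element (triangles) by distance in bases from the annotated start (dashed line) for 6 genes, each gray line being a window of 250 bases before and 50 after the start. *Mt2* has 4 core matches and *Mt1* has 3, while *Mt3* has 1, past its start.

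Among the metallothioneins, *Mt1* and *Mt2* were abundant in both libraries and *Mt3* was not. *Mt1* had 4358 counts in Tc1 replicate 2 and 7652 in Tc9 replicate 2, or 313.83 and 559.64 FPKM (fragments per kilobase of gene for a fixed library size). *Mt2* had 4294 and 4757 counts, or 329.77 and 370.45 FPKM. By FPKM *Mt1* ranked 140th of the 7964 genes that both tables cover in the Tc1 library and 79th in the Tc9 library, and *Mt2* ranked 130th and 104th. Both genes thus stood near the top of the expressed genes in Tc1 and in Tc9. *Mt3*, the metallothionein of nervous tissue, had 60 counts in Tc1 and 11 in Tc9, or 4.82 and 0.90 FPKM. *Mt4*, a metallothionein of stratified epithelia, had 2 counts in Tc1 and was not listed in Tc9, which is under the 3 counts taken as detectable in both.

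*Mt1* and *Mt2*, which are usually induced together, differed between the libraries by unequal amounts. For *Mt1* the log2 ratio of Tc9 to Tc1, after scaling by library size and adding a prior count of 2, was 0.81, with an exact binomial 95% interval of 0.76 to 0.87, which covers counting error only. *Mt1* was thus 1.76-fold higher in Tc9. For *Mt2* it was 0.15 (0.09 to 0.21), or 1.11-fold. Within a library, where scaling plays no part, *Mt1* stood at 0.952 times the FPKM of *Mt2* in Tc1 and at 1.51 times in Tc9. The log2 ratio of these ratios was 0.66, with an exact conditional 95% interval of 0.58 to 0.75. *Mt1* thus took 48.4% of the summed metallothionein FPKM in Tc1 and 60.1% in Tc9, with *Mt2* at 50.8% and 39.8%. The sum over the 4 metallothioneins was 648.68 FPKM in Tc1 and 930.99 in Tc9.

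*Mt3* was the metallothionein that was lower in Tc9. Its log2 ratio was -2.25 (-3.52 to -1.51), 4.77-fold lower in Tc9, and it made up 0.743% of the summed metallothionein FPKM in Tc1 and 0.0967% in Tc9. *Mt3* thus had the opposite direction from its neighbors in the cluster, *Mt2* and *Mt1*, and its level was far below theirs in either library. Set against *Mt2* within each library, the log2 difference of *Mt3* was -2.60 (-3.67 to -1.65).

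The sensor and the exporter of the same pathway stood close to equal in the libraries. *Mtf1* had 1097.46 counts in Tc1 and 1070.32 in Tc9, or 4.58 and 4.64 FPKM, a log2 ratio of -0.04 (-0.16 to 0.09). *Slc30a1* had 991 and 1045 counts, or 6.08 and 6.66 FPKM, a log2 ratio of 0.08 (-0.05 to 0.20). Both intervals include 0. The direction of *Mtf1* turned with the scaling, to a log2 ratio of 0.01 with library size alone and 0.02 from FPKM. Per length both genes were far below *Mt1* and *Mt2* in the same library.

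*Nos2* had 71 counts in Tc1 replicate 2 and 5 in Tc9 replicate 2, or 0.55 and 0.04 FPKM. The log2 ratio was -3.38 (-5.49 to -2.54), 10.4-fold lower in Tc9 with the prior count and 14.2-fold without it. *Nos2* was the lowest of the 6 genes per length in both libraries, and in Tc9 it was close to the smallest level that can be read. The tables give it a length of 4164 bases in Tc1 and 3815 in Tc9, so that its FPKM values rest on unequal lengths and its counts do not. In order of FPKM the 6 genes ran *Mt2*, *Mt1*, *Slc30a1*, *Mt3*, *Mtf1* and *Nos2* in Tc1, where *Mt1* and *Mt2* were near each other and *Mt3* was near *Mtf1*. In Tc9 the order was *Mt1*, *Mt2*, *Slc30a1*, *Mtf1*, *Mt3* and *Nos2*.

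**Figure D2:**
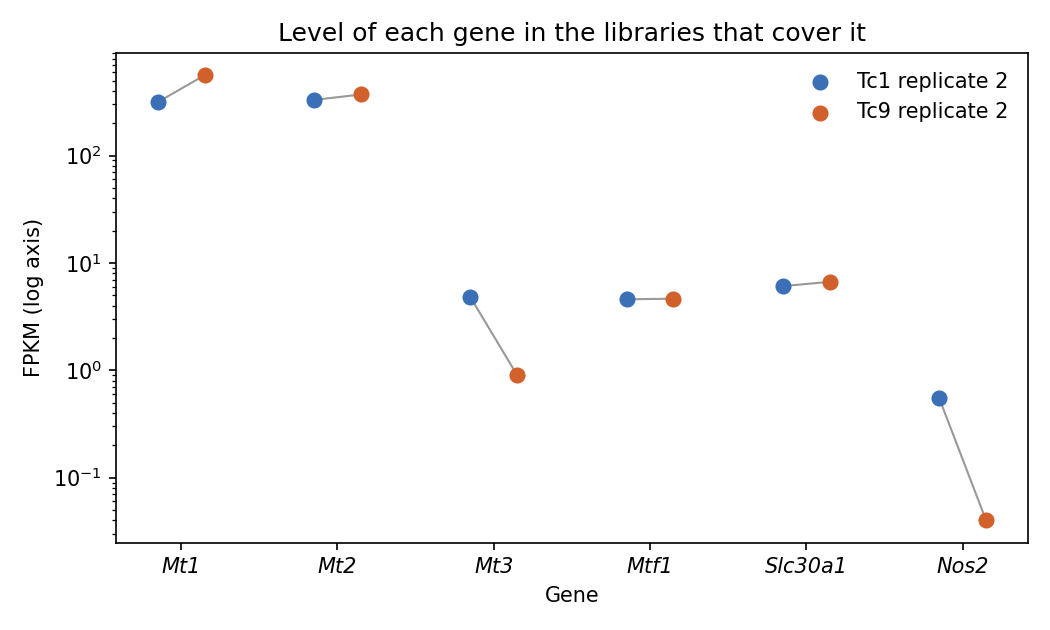
FPKM on a log axis of the 6 genes in Tc1 replicate 2 (blue) and Tc9 replicate 2 (orange), the libraries that cover them, with a gray line joining the values of a gene. *Mt1* and *Mt2* lie between 313.83 and 559.64, *Mt3* and *Nos2* are lower in Tc9, and *Mtf1* and *Slc30a1* are nearly level.

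Over the 6072 genes with a mean of at least 10 counts in the replicate 2 libraries, the median log2 ratio was 0.02. Of these genes 9.98% were at least 2-fold higher in Tc9 and 4.63% at least 2-fold lower, and among the 6 genes described here 0 were in the first class and 2, *Mt3* and *Nos2*, in the second. This count follows from how the genes were chosen. Of the 6072 genes, 0.889% had a lower ratio than *Mt3* and 0.313% a lower ratio than *Nos2*, and 86.6% had a lower ratio than *Mt1*. *Mtf1*, *Slc30a1* and *Mt2* lay near the middle, with 45.5%, 53.8% and 58.6% of genes below them.

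**Figure D3:**
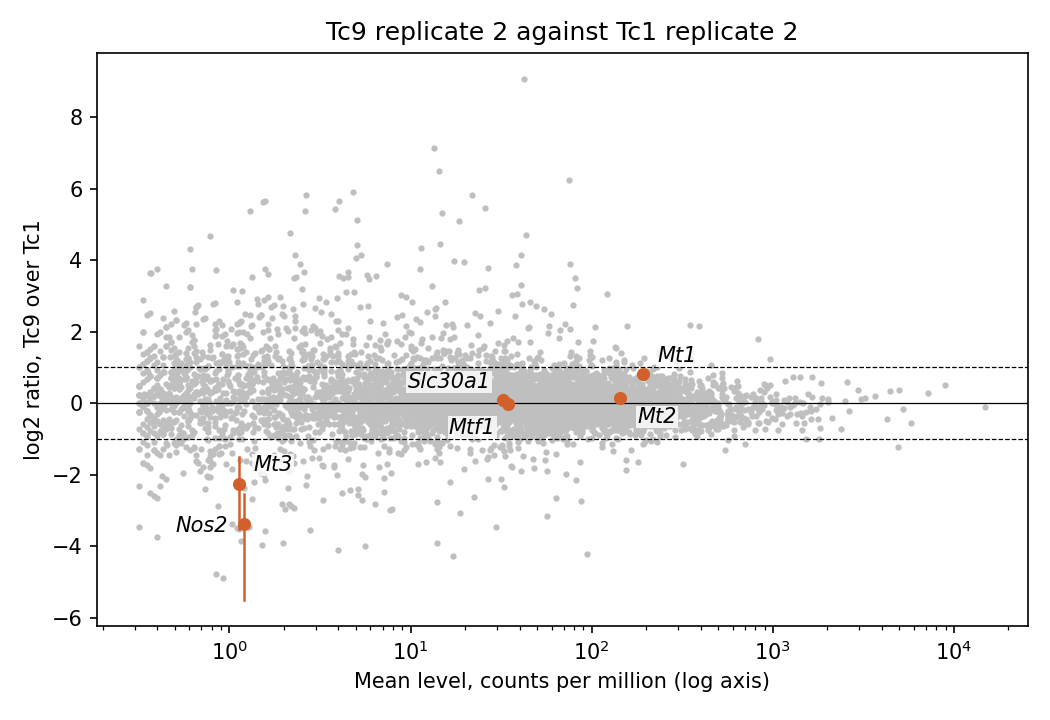
Log2 ratio of Tc9 replicate 2 to Tc1 replicate 2 against the mean level in CPM (log axis) for 6072 genes (gray), with the 6 genes in orange, exact binomial 95% intervals as vertical lines and 2-fold differences dashed. *Mt3* and *Nos2* lie below the lower dashed line at mean levels near 1 CPM, and the other 4 lie between the dashed lines.

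The spread between libraries of one group can be read only from other genes, over the part of the tables where both replicates exist. For genes with a mean of 20 to 80 counts, the range of *Mt3* and *Nos2*, 95% of genes differed by less than 0.869 on the log2 scale between the Tc1 libraries (116 genes) and by less than 0.931 between the Tc9 libraries (288 genes), but the largest differences were 5.08 and 4.91. Between the Tc9 and Tc1 libraries of replicate 2, 95% of the 619 genes at that level differed by less than 2.93. These values stand as a description, since *Mt3* and *Nos2* were chosen for their differences. For genes with 2000 to 10000 counts, the range of *Mt1* and *Mt2*, the same 95% limits were 0.147 (351 genes) and 0.503 (728 genes), with the largest at 0.659 and 0.916. Between the Tc9 and Tc1 libraries of replicate 2 the limit at that level was 0.976 (1645 genes). The *Mt1* ratio of 0.81 was above both limits between replicates and below the limit between the groups. The *Mt2* ratio of 0.149 was just above the limit between the Tc1 libraries and below that between the Tc9 libraries. For *Mtf1* and *Slc30a1*, in the range of 500 to 2000 counts, the limits were 0.183 and 0.499, and both ratios were smaller.

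The genes closest to *Mt3* and *Nos2* in level were found by the distance of log2 CPM over the same 2 libraries. For *Mt3* they were *Mpeg1*, with 65 counts in Tc1 and 11 in Tc9, *Zfp105*, with 52 and 13, and *Phf11a*, with 74 and 9.87. For *Nos2* they were *Nid1*, with 75 and 5, *Serpinb9b*, with 67 and 4, and the chemokine receptor gene *Ccr2*, with 65 and 4. Likeness over 2 libraries is weak, since 29 genes lay within a distance of 0.5 of *Mt3* and 12 within that of *Nos2*.

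*Nos2* and the metallothioneins are made by other cells of a tumor as well, so markers of those cells were read in the same libraries. Of 20 myeloid markers, 15 had at most 3 counts in both libraries and 7 were at 0 in both, among them *Lyz1*, *Lyz2*, *C1qc*, *S100a8* and *S100a9*. The summed counts of the list were 255 in Tc1 replicate 2 and 493 in Tc9 replicate 2, of which *Cd68* held 221 and 439. Without *Cd68* the sums were 34 and 54, and without *Aif1* as well they were 32 and 33, so the higher sum in the Tc9 library came from these 2 genes. Of the 4 genes of the list tested by edgeR, 2 rose and 0 fell. Over 4 libraries, where 3 of the 4 were tested, 17.4% of all genes tested rose and 16.7% fell. Over 3 libraries, where 1 was tested, 7.54% rose and 3.21% fell. *Cd68* was at 226 and 221 counts in Tc1 cells against 358 and 439 (log2 fold change 0.84, adjusted p = 0.00295 by edgeR), and *Aif1* at 7 and 2 against 16 and 21 (2.01, 0.0167). *Itgam*, of the same list, was at 12 counts in Tc1 replicate 2 against 9 and 2 in Tc9 cells and did not pass the 3-library test by edgeR (log2 fold change -1.11, adjusted p = 0.416). Outside that list, 3 genes known from myeloid cells were picked after their values were seen, and the same test called them lower in Tc9. For *Mpeg1* and *Ccr2* this follows from how they were found, as the genes near *Mt3* and *Nos2* in level. *Fcer1g* was at 114 counts in Tc1 replicate 2 against 24 and 13 in Tc9 cells (log2 fold change -2.61) and *Mpeg1* at 65 against 19 and 11 (-2.11). *Ccr2*, which T cells can express too, was at 65 against 4 and 4 (-3.98). Of the 8 melanoma markers that both tables cover, 5 were at 0 in both, and the sum was 82 in Tc1 and 134 in Tc9. *Pmel* held 69.97 and 116.53 of these counts, *Tyr* 6 and 12.89, and *Mitf* 6 and 5. The 9 markers of stroma, endothelium and keratinocytes summed to 457 and 465 counts, of which *Pecam1*, which T cells also express, held 445 and 446. The B cell, NK cell and CD4 T cell markers summed to 261 and 2137 counts, most of the second value being *Foxp3*, with 34.6 and 1592 counts, a gene of regulatory T cells that TGF-β can also induce. *Cd79b*, a B cell gene, was at 155 counts in Tc1 replicate 2 against 380 and 473 in Tc9 cells, and rose in a test over these 3 libraries (log2 fold change 1.46, adjusted p = 0.0226 by edgeR). The calls of this test were lost when genes with low counts were not filtered out. The part of such cells in the *Mt3* and *Nos2* values was not tested.

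The other zinc transporters went both ways. Of 23 listed genes besides *Slc30a1*, 13 are covered by both replicate 2 libraries and 9 had a mean of at least 10 counts. Of these, 7 were higher and 2 lower in Tc9, 0 were past 2-fold, and the median log2 ratio was 0.21, beside 0.02 over all genes. The highest ratios belonged to *Slc39a14*, which imports zinc and iron (1572 and 2844 counts, 0.86, interval 0.77 to 0.95), to *Slc39a6*, and to *Slc30a4*, which carries zinc into vesicles (1204 and 1709 counts, 0.51, 0.40 to 0.61). The lowest were the importer gene *Slc39a10* (1267 and 789 counts, -0.68, -0.81 to -0.55), *Slc30a6*, of the Golgi (721 and 595 counts, -0.28, -0.44 to -0.12), and *Slc30a9* (1154 and 1162 counts, 0.01, -0.11 to 0.13).

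Genes in the first part of the tables could be tested, with edgeR's quasi-likelihood test and Benjamini-Hochberg adjustment over all genes. In the range of all 4 libraries, 17.4% of the 1284 genes tested were higher in Tc9 and 16.7% lower at an adjusted p of 0.05, and in the range of 3 libraries, where Tc1 replicate 1 is missing, 7.54% of 2613 genes were higher and 3.21% lower. In the second range the lone Tc1 library is assumed to vary like the Tc9 libraries. Of the zinc transporters 4 were tested and 1 was called. *Slc39a6*, a zinc importer of the plasma membrane, was read at 5274 and 4915 counts in Tc1 cells and at 7852 and 7754 in Tc9 cells. The groups did not overlap, as in 70.4% of all genes tested over 4 libraries. *Slc39a6* rose in Tc9 (log2 fold change 0.62 ± 0.10 SE, adjusted p = 0.00204). *Slc30a9*, *Slc39a3* and *Slc39a7* did not pass the test, with log2 fold changes of 0.02, -0.00029 and 0.15.

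Copper is the other metal that metallothioneins hold. Of 10 copper genes, 9 could be compared in the replicate 2 libraries, with 3 higher and 6 lower in Tc9 and a median log2 ratio of -0.09. In the tests 1 of 6 rose and 1 fell. Of the 6, 5 were tested over 4 libraries, where 17.4% of all genes tested rose and 16.7% fell. The other 1 was tested over 3 libraries, where 7.54% rose and 3.21% fell. *Atp7b*, a copper-exporting ATPase, was read at 16 and 12 counts in Tc1 cells and at 101 and 108 in Tc9 cells, and it rose by a log2 fold change of 2.89 ± 0.27 (adjusted p = 4.4e-05). *Cox17*, a copper chaperone of mitochondria, was read at 2815 counts in Tc1 replicate 2 against 862 and 751 in Tc9 cells, and its log2 fold change was -1.80 ± 0.21 (adjusted p = 0.00643 in the 3-library test). The importer gene *Slc31a1* had 1684 and 1681 counts in the replicate 2 libraries, a log2 ratio of -0.0016 (-0.10 to 0.10). *Slc31a2* was at 371 and 573 counts (0.63, 0.44 to 0.82). *Sco2* had the next ratio (0.52), but over 4 libraries it was at 294.14 and 326.87 counts in Tc1 cells against 290.54 and 469.26, so that the groups overlapped, and it did not pass the test (log2 fold change 0.29, adjusted p = 0.298). The lower ratios beside *Cox17* were those of *Commd1* (-0.29) and *Ccs*, which loads copper onto superoxide dismutase (-0.18). Over 4 libraries *Ccs* was at 538 and 558 counts against 559 and 491, again with overlap, and it did not pass (-0.06, adjusted p = 0.745).

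Of the 3 nitric oxide synthases, *Nos2* had the highest FPKM in the Tc1 library and *Nos1* in the Tc9 library. *Nos1*, the neuronal enzyme, had 9 counts in Tc1 replicate 2 and 23 in Tc9 replicate 2 (log2 ratio 1.19, 0.19 to 2.65), against 71 and 5 for *Nos2*, and per length *Nos1* was at 0.03 and 0.08 FPKM against 0.55 and 0.04. *Nos3*, the endothelial enzyme, had 3 and 4.01 counts, at the edge of detection. Of 29 genes of arginine and nitric oxide metabolism, 17 could be compared, with 6 higher and 11 lower in Tc9 and a median log2 ratio of -0.28. *Gch1*, which makes the first step toward the cofactor tetrahydrobiopterin, had 266 and 163 counts (-0.70, -0.996 to -0.42). In the 3-library test it did not pass (adjusted p = 0.115).

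In the tests 2 of 14 genes of this list rose and 4 fell, each given with its log2 fold change ± SE. Of the 14, 11 were tested over 4 libraries, where 17.4% of all genes tested rose and 16.7% fell. The other 3 were tested over 3 libraries, where 7.54% rose and 3.21% fell. The transporters that bring arginine into the cell went both ways. *Slc7a1* was read at 15257 and 15271 counts in Tc1 cells and at 11688 and 12579 in Tc9 cells (-0.33 ± 0.10, adjusted p = 0.0310). *Slc7a3* had 1002 and 986 counts against 469 and 487 (-1.05 ± 0.12, adjusted p = 0.000123). *Slc7a2* was near the limit of detection in Tc1, with 0 and 4 counts, and had 39 and 28 in Tc9 (3.99 ± 0.65, adjusted p = 0.00157), where the size of the fold change depends on the prior count. *Ass1*, which remakes arginine from citrulline with *Asl*, was read at 2348 and 2203 counts against 2936 and 3612 in Tc9 (0.53 ± 0.13, adjusted p = 0.0118). *Asl* did not pass the test (log2 fold change 0.32, adjusted p = 0.0726). *Calm2*, a gene for calmodulin, which NOS enzymes need, had 6350 and 6558 counts against 5515 and 4296 (-0.39 ± 0.13, adjusted p = 0.0450). *Adh5*, which breaks down S-nitrosoglutathione, had 3367 and 3385 against 2776 and 2388 (-0.38 ± 0.12, adjusted p = 0.0318). The groups did not overlap in these 6 genes, nor in 70.4% of all genes tested over 4 libraries. Without Tc1 replicate 1 or without Tc1 replicate 2, *Slc39a6*, *Ass1*, *Slc7a1*, *Calm2* and *Adh5* no longer passed the test, at log2 fold changes of 0.67 and 0.57 for *Slc39a6*, 0.57 and 0.49 for *Ass1*, -0.33 and -0.32 for *Slc7a1*, -0.42 and -0.37 for *Calm2*, and -0.39 and -0.38 for *Adh5*. *Calm2* moved to -0.58 without Tc9 replicate 1 and to -0.22 without Tc9 replicate 2. *Atp7b*, *Slc7a2* and *Slc7a3* passed the test in every fit that left out 1 library, but the log2 fold change of *Slc7a2* ran from 3.03 without Tc1 replicate 1 to 8.07 without Tc1 replicate 2.

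**Figure D4:**
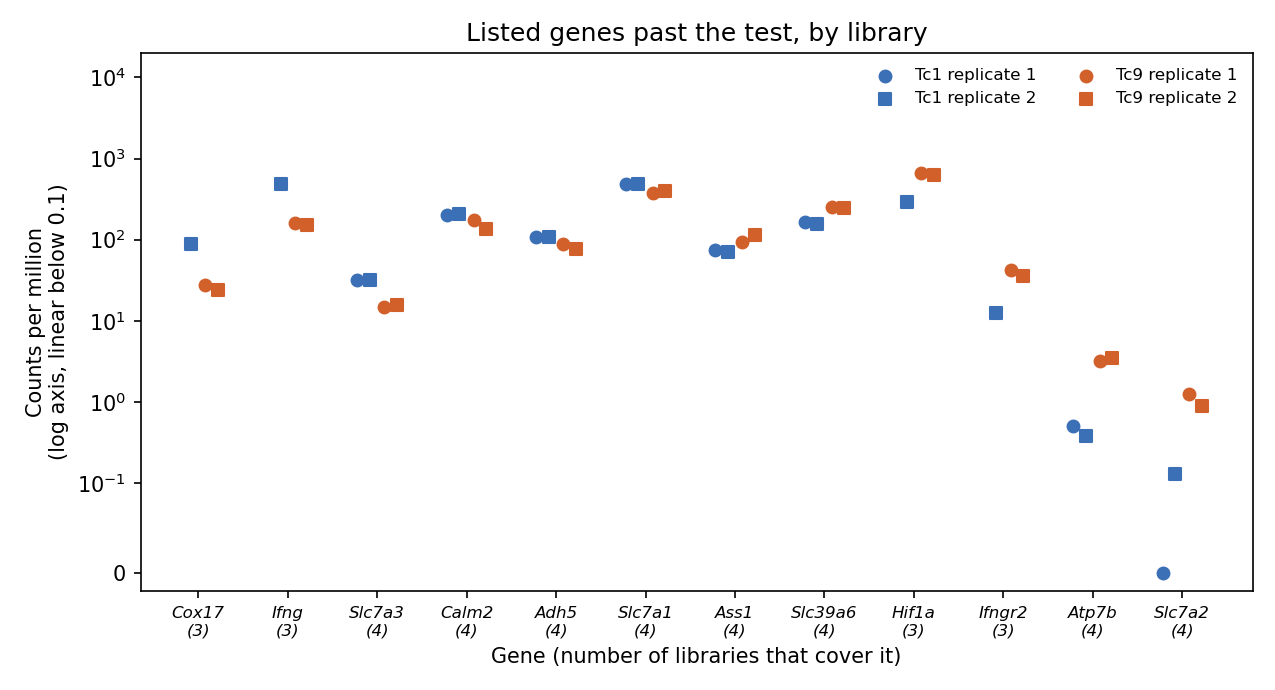
CPM (log axis, linear below 0.1) of the 12 listed genes past an adjusted p of 0.05 by edgeR, cell type markers left out, by library, blue for Tc1 and orange for Tc9, circles for replicate 1 and squares for replicate 2, with the number of libraries that cover a gene in brackets. *Slc7a2* and *Atp7b* are the lowest of these genes in Tc1, and *Cox17*, *Ifng*, *Ifngr2* and *Hif1a* have a single Tc1 point.

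Of the 18 genes of signals known to induce *Nos2*, 17 could be compared, with 10 higher and 7 lower in Tc9 and a median log2 ratio of 0.07. In the tests 2 of 9 rose and 1 fell. Of the 9, 8 were tested over 3 libraries, where 7.54% of all genes tested rose and 3.21% fell. The other 1 was tested over 4 libraries, where 17.4% rose and 16.7% fell. *Ifng*, the cytokine that marks Tc1 cells and that the Tc9 culture neutralized, was read at 15303 counts in Tc1 replicate 2 against 5097 and 4700 in Tc9 cells (fold change on the log2 scale -1.64 ± 0.20, adjusted p = 0.00778 in the 3-library test). *Ifngr2*, a chain of its receptor, was at 393 against 1309 and 1104 (1.62 ± 0.24, adjusted p = 0.0130), and *Hif1a*, the oxygen-sensing factor, had 9239 against 20694 and 19503 (1.12 ± 0.21, adjusted p = 0.0267). The transcripts of this list thus went both ways. Of the transcription factors of IFN-γ signaling, *Irf1* had 2590 and 4184 counts in the replicate 2 libraries (log2 ratio 0.69) and *Irf8* had 14755 and 8654 (-0.77). Of the NF-κB genes, *Nfkb1* was at 27376 and 27565 counts (0.01), *Rela* at 3774 and 5753 (0.61) and the inhibitor gene *Nfkbia* at 1863 and 1272 (-0.55). *Jak2* was at 2439 and 4134 counts (0.76). In the 3-library test *Irf1*, *Irf8* and *Jak2* did not pass, with adjusted p values of 0.0982, 0.0575 and 0.0758.

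Glucocorticoids also induce *Mt1* and *Mt2*. Of 8 genes of the glucocorticoid response 7 could be compared, with 5 higher and 2 lower in Tc9 and a median log2 ratio of 0.14. The receptor gene *Nr3c1* had 2453 counts in Tc1 replicate 2 and 3044 in Tc9 replicate 2 (log2 ratio 0.31, 0.24 to 0.39). *Sgk1*, a kinase gene, stood apart with 270 and 1625 counts (2.58, 2.40 to 2.78), and *Klf9* was at 310 and 518 (0.74, 0.54 to 0.95). The target genes *Tsc22d3* (0.14) and *Per1* (0.05) were near 0, and *Fkbp5* (-0.31) and *Dusp1* (-0.43) were lower in Tc9. In the 3-library test 4 genes of this list were tested, *Nr3c1*, *Tsc22d3*, *Fkbp5* and *Klf9*, and 0 passed, with adjusted p values from 0.120 for *Klf9* to 0.611 for *Fkbp5*.

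**Figure D5:**
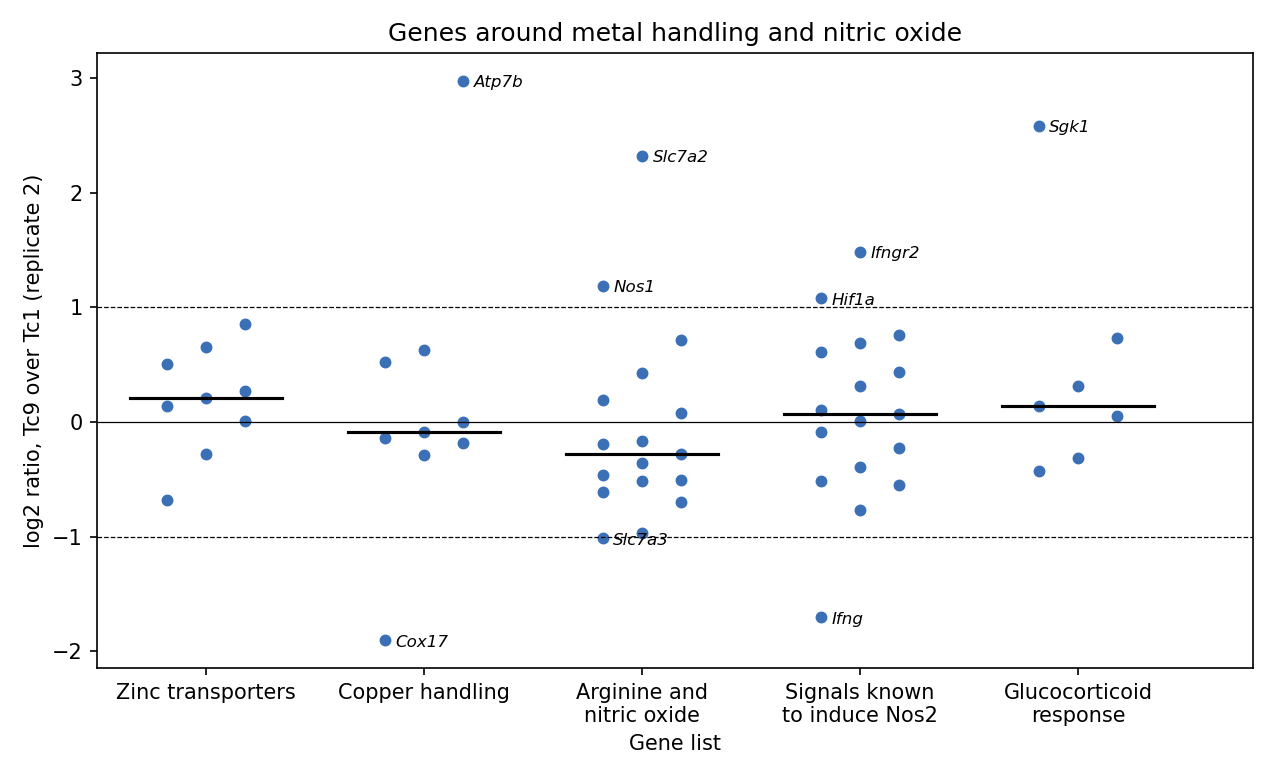
Log2 ratios of Tc9 replicate 2 to Tc1 replicate 2 for the genes of 5 lists with a mean of at least 10 counts, each point a gene, with the median of a list as a black bar, 2-fold differences dashed and genes at or past them named. The medians lie between -0.28 (arginine and nitric oxide) and 0.21 (zinc transporters), and *Atp7b*, *Sgk1* and *Slc7a2* are the highest points.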

How the data were processed

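RNA-Seq data of sorted tumor-infiltrating Tc1 and Tc9 cells, 2 libraries each, were used as the authors deposited them. The authors deposited for each gene an expected count (estimated reads, not always whole and not normalized), an FPKM value scaled by gene length and library size, and a length in bases. The aligner and counting program are not given in the sources used here. Libraries were assigned to groups by their titles.

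The tables list genes by identifier and end at different points (1535 and 7408 genes for the Tc1 replicates, 3152 and 15442 for the Tc9 replicates). An incomplete last row was dropped, and genes missing inside the span of a table were set to 0 counts. Depth was the sum of counts for the whole table, Tc9 replicate 2, and was estimated from counts and FPKM of equal-length genes for the others. CPM used this depth with TMM factors (0.990, 0.983, 1.01 and 1.02). The factors came from the 1284 genes, of 1681 in the range of all 4 libraries, that passed the filter on low counts. Expected counts were rounded for edgeR 4.0.16 in R 4.3.3 (two-sided quasi-likelihood test, minimum count 10), over 4 or 3 libraries, and limma 3.58.1 and DESeq2 1.42.0 served as alternatives, with scripts tested on simulated data. Genes beyond these ranges were compared between the replicate 2 libraries with a prior count of 2, intervals from scipy 1.17.1 (exact binomial), and no test. Reads were not tagged by molecule, so intervals and the 3-count floor cover counting error only. Nothing says that the libraries hold separate mice, so p values measure the spread between these samples, which may be technical.

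The members and lists were chosen with earlier results of these data known. Named are the 6 members and *Mt4*, the 3 highest and 3 lowest ratios of each list among genes with a mean of at least 10 counts, list genes past the tests, and the 3 nearest genes to *Mt3* and *Nos2*. Others, such as *Irf1* and *Nos3*, were picked with their values in view. A few listed genes that the naming rule covers are not reported here, and the counts and medians of their lists include them.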

Additional observations from a re-analysis of the deposited data

How the results depend on the processing

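The direction of *Mt1*, *Mt2*, *Mt3* and *Nos2* held with library size alone, with prior counts of 0.5 and 5, with FPKM ratios, with log2(FPKM + 1) and, chosen after seeing the data, with TMM factors from the replicate 2 libraries, and every value lay within the counting interval except that of *Nos2* with log2(FPKM + 1), -0.58. Genes at least 2-fold apart numbered 606 higher and 281 lower, but 270 and 109 with log2(FPKM + 1), and 971 higher without the filter on low counts. In the 4-library test the 224 higher and 214 lower genes became 130 and 110 without the filter, and 72 to 405 higher and 39 to 405 lower when 1 library was left out, the fewest without Tc1 replicate 1 and the most without Tc9 replicate 1. With the replicate block the counts were 231 and 213, and of the listed genes called over 4 libraries, cell type markers aside, *Slc7a1* was lost (log2 fold change -0.33). The 4-library calls of marker genes were not followed through these alternatives. *Slc7a1* and *Calm2* were also lost with library size alone and with both limma fits, *Adh5* with limma on log2(FPKM + 0.1), *Slc7a2* with limma on log2(FPKM + 1), and *Slc7a1*, *Calm2*, *Adh5* and *Ass1* without the filter. The differences between replicates were hardly correlated between the groups (-0.085 over 1284 genes). With 2 libraries per group this cannot show whether libraries of the same replicate number shared mice or handling. In the 3-library test the 197 higher and 84 lower genes became 371 and 163 with library size alone, 127 and 49 with limma on log2(FPKM + 1), and 0 and 0 in edgeR without the filter (370 and 228 at an unadjusted p under 0.05), so that every call of that test named here, *Cox17*, *Ifng*, *Ifngr2*, *Hif1a*, *Cd79b*, *Fcer1g*, *Mpeg1* and *Ccr2*, rests on the filter, and the cause was not tested. The longer metal response element core was found in 7.54% of promoters.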
